A study of Mus musculus and synthetic construct with 30 samples.

Results

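Potassium channel genes were followed in 16 RNA-seq libraries of the *Peril* knockout. The genes were chosen by symbol alone (Kcn, then letters, then a number), which gave 92 gene entries with 91 symbols among 26759 genes. They fall into 31 voltage-gated pore subunits, 10 silent voltage-gated subunits, 15 inward rectifiers, 14 two-pore channels, 8 ion-activated channels and 14 accessory subunits. *Kcnb2* is listed under 2 identifiers, ENSMUSG00000090498 and ENSMUSG00000092083, and its reads may be split between them. The 3 tissues were mouse embryonic stem cells (mESC), E14.5 kidney and the E14.5 ganglionic eminence with the olfactory bulb (GE/OB). In each tissue, wild type (WT) was compared with a homozygous knockout (KO) in which a *LacZ* reporter replaced the *Peril* gene body and the *Peril* promoter was left in place. No Cre line or drug treatment separated WT from KO within a tissue. By the paper, the mESC were grown in 2i (inhibitor) medium on feeder fibroblasts, and their libraries took more RNA than those of the embryos. Tissue, culture and RNA input therefore cannot be told apart. The mice had a mixed 129S6 and C57BL/6 background after 3 backcrosses (N3).

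The mESC libraries came from 3 wells of 1 WT clone (clone 4) and 3 wells of 1 KO clone (clone 6). Genotype, clone and passage cannot be told apart there. The p-values take wells as replicates, with a spread estimated over all 16 libraries, embryos included. They do not cover the spread between clones. The kidney libraries came from 3 WT and 3 KO embryos of litter 43, and the GE/OB libraries from 2 WT and 2 KO embryos of litter 46. In the kidney WT 1, WT 8 and KO 7 were male and WT 3, KO 9 and KO 10 female, so sex was not balanced there. In GE/OB the WT pair was male and the KO pair female, and the effects of sex cannot be told apart from those of genotype. Expected counts summed to 17544707 to 45924887 per library. *Peril* was at 0.57, 0.51 and 0.33 TPM (a count scaled by gene length and library size) in the mESC WT wells and at 0.24, 0.16 and 0.24 TPM in the KO wells, and it was listed at 0 in all kidney and GE/OB libraries. *LacZ* stood at 69.6 to 73.7 TPM in mESC KO, at 44.4 and 45.8 TPM in GE/OB KO, and at 0.47 TPM or less in every other library. The tissues carried their markers: 4 stem cell genes summed to 2371 to 2426 TPM in mESC, 6 kidney genes to 242 to 299 TPM in the kidney, and 8 neuron genes to 3756 to 4264 TPM in GE/OB. The neuron genes *Stmn2* and *Tubb3* were also at means of 274.8 and 102.9 TPM in mESC, where *Dcx* was at 0.0083 TPM.

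Potassium channels let potassium leave or enter cells, and so set the resting membrane potential and end each action potential. Voltage-gated channels are tetramers of pore subunits that open on depolarization. Silent subunits carry no current alone and join other pore subunits. Inward rectifiers and two-pore channels hold the resting potential. Calcium or sodium in the cell opens most of the ion-activated channels, and accessory subunits change the gating or transport of the pore. Neurons use many of these genes, and kidney epithelia and vessel walls use others to move salt and set tone.

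These genes were most abundant in GE/OB. Their TPM summed to 561 ± 50.6 in GE/OB (SD, n = 4), 117 ± 4.19 in the kidney (SD, n = 6) and 91.0 ± 4.47 in mESC (SD, n = 6). Means and SDs run over the WT and KO libraries of a tissue. A mean of at least 1 TPM was reached by 61 of 92 entries in GE/OB, by 28 in the kidney and by 18 in mESC. In all, 68 reached it in some tissue, and of these 53 were highest in GE/OB, 10 in the kidney and 5 in mESC. As these are bulk samples, fewer cells of a type and less RNA per cell cannot be told apart.

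**Figure D1:**
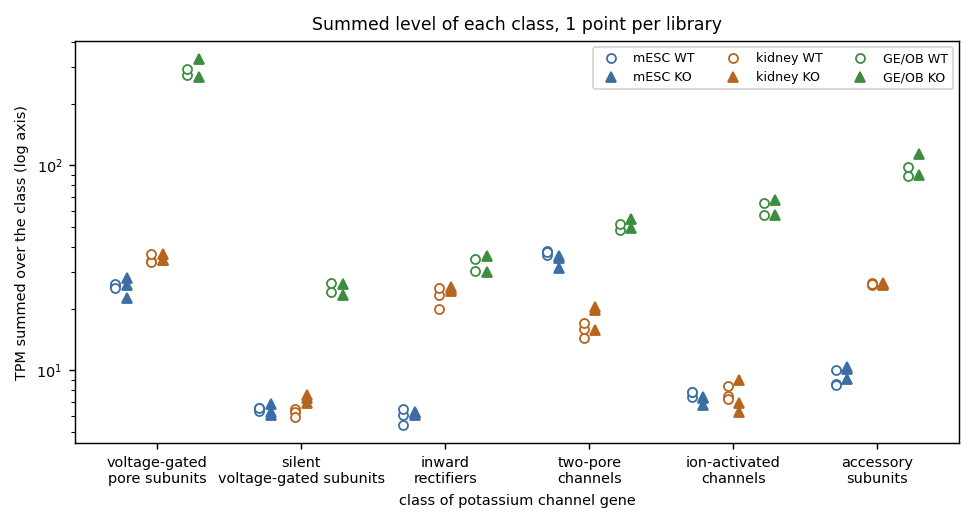
Summed TPM of each class of potassium channel gene (log axis), with 1 point per library (open circles WT, filled triangles KO, colours for tissues). In each of the 6 classes the lowest GE/OB library lies above the highest library of the other tissues, by least for inward rectifiers (30.1 TPM against 25.5 TPM). TPM can set GE/OB further above the kidney than counts do, as for *Kcnd2*, so the rectifier gap holds for TPM only.

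Classes differed in how much of this they shared. Voltage-gated pore subunits summed to 292.8 ± 27.2 TPM in GE/OB (SD, n = 4), against 35.2 ± 1.37 in the kidney and 25.8 ± 1.84 in mESC (SD, n = 6 each). Ion-activated channels summed to 62.0 ± 5.38 TPM in GE/OB and to 7.55 ± 0.97 and 7.43 ± 0.392 in the kidney and mESC. The ranges of the kidney and mESC overlapped for ion-activated channels and not for voltage-gated pore subunits. Inward rectifiers summed to 32.8 ± 2.98 TPM in GE/OB, 23.9 ± 2.06 in the kidney and 6.06 ± 0.359 in mESC. The class sums were not tested, and a gap in TPM between GE/OB and the kidney can exceed that in counts, as *Kcnd2* shows below. Silent subunits summed to 25.2 ± 1.68, 6.75 ± 0.632 and 6.42 ± 0.259 TPM and accessory subunits to 97.6 ± 11.6, 26.4 ± 0.292 and 9.45 ± 0.86 TPM in the same order. Two-pore channels were the class with the highest sum in mESC, 35.9 ± 2.31 TPM, which stood above the kidney's 17.2 ± 2.4 and below the 51.0 ± 2.71 of GE/OB.

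**Figure D2:**
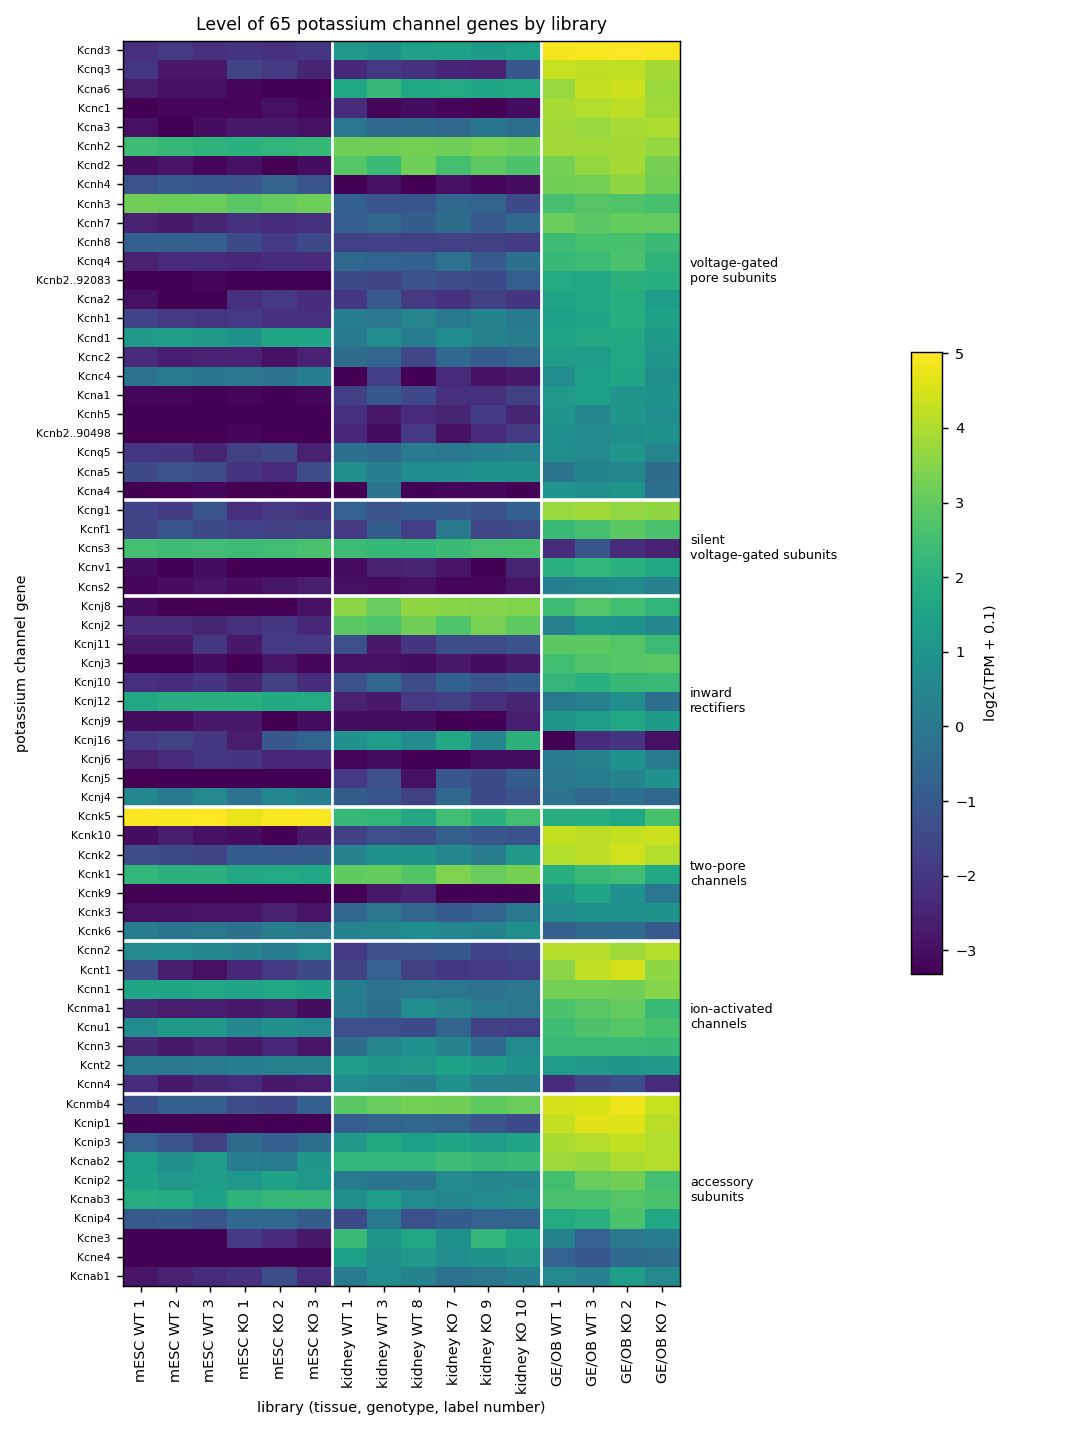
Heat map of log2(TPM + 0.1) for 65 of the 68 potassium channel genes with a mean of at least 1 TPM in some tissue (rows, by class) in the 16 libraries (columns, white lines between tissues). Most rows are brightest in the 4 GE/OB columns, and *Kcnk5*, *Kcnh3*, *Kcns3* and *Kcnj12* are among the few bright rows in mESC.

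To show where these genes start, RefSeq promoters (build GRCm38.p6, 250 bases before to 50 after the start) are given for 4 genes that the results turn on. They are *Kcnk5*, the leading gene of the 92 in mESC, *Kcnj8*, the leading one in the kidney, *Kcnd3*, at 29.7 to 32.3 TPM in GE/OB, and *Kcnh8*, which fell in KO mESC. The sequences run 5′ to 3′ along the gene's strand, and capitals mark GGGCGG or its reverse complement CCGCCC, the letters of the GC box that Sp1-type factors bind. *Kcnk5* (chr14:20181733-20182032, minus strand) held 3 GC boxes and 26 CG pairs, *Kcnj8* (chr6:142571565-142571864, minus strand) 0 and 9, *Kcnd3* (chr3:105451640-105451939, plus strand) 0 and 25, and *Kcnh8* (chr17:52602459-52602758, plus strand) 1 and 21.
Kcnk5: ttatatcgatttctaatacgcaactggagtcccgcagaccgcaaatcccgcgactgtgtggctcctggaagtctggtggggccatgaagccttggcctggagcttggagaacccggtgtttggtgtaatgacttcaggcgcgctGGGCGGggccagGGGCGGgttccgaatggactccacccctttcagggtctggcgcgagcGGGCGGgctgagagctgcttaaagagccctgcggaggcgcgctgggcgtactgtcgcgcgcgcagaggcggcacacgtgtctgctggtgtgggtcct
Kcnj8: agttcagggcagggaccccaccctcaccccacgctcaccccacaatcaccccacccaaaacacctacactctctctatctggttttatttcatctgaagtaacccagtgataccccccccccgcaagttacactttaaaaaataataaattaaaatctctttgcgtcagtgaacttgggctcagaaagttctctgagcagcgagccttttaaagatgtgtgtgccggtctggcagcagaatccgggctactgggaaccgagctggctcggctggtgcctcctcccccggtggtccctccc
Kcnd3: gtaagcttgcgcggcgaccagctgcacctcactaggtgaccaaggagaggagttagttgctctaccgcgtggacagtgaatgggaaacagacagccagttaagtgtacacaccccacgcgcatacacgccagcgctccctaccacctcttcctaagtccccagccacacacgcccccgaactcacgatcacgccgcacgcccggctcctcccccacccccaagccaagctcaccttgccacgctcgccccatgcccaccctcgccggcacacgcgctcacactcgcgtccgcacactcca
Kcnh8: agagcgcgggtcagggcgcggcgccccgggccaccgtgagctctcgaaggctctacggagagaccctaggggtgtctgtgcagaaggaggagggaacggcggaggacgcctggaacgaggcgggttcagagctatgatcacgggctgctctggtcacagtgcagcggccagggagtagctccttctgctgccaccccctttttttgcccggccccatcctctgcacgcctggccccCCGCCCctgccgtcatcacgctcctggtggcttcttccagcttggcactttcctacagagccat
The RefSeq table held a promoter for 66 of the 91 symbols (72.5%), too few for a comparison over the class. By the first start listed for each gene, 35 of the 66 (53.0%) held a GC box on either strand, and 35.9% of all 27025 genes in the table did. The gap between these shares was not tested.

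Among voltage-gated pore subunits, *Kcnq3*, which forms slow channels that damp repeated firing, was at 19.99 and 18.6 TPM in WT and 18.4 and 14.7 TPM in KO GE/OB. Its means were 0.153 and 0.123 TPM in the kidney and mESC, and no library there reached the lowest of GE/OB.

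The A-type channels of the Kv4 group, which open and inactivate fast, had 3 genes with different patterns. *Kcnd1* reached a mean of 1 TPM in every tissue, at 2.90 ± 0.46 TPM in GE/OB, 1.23 ± 0.29 in the kidney and 2.41 ± 0.44 in mESC. *Kcnd3* was at 29.7 and 30.3 TPM in WT and at 32.3 and 30.4 TPM in KO GE/OB. In the kidney it ranged from 1.81 to 2.75 TPM and in mESC from 0.12 to 0.16 TPM. *Kcnd2* was at 11.8 ± 2.5 TPM in GE/OB and 6.73 ± 1.5 TPM in the kidney, and the difference in log2 counts between these tissues was 0.20 ± 0.159 (SE, adjusted p = 0.241). Against mESC, where it did not pass 0.04 TPM in a library, *Kcnd2* was 8.16 ± 0.305 higher in the kidney (log2, adjusted p = 7.09e-14), the largest rise of the class in that pair. *Kcnc1*, a fast Kv3 channel of interneurons, gave the largest GE/OB rise over the kidney. Its log2 difference was 9.66 ± 0.185 (SE, adjusted p = 2.68e-17), with 14.1 to 18.1 TPM in GE/OB and at most 0.11 TPM in a kidney library. *Kcna6*, a Kv1 delayed rectifier, followed *Kcnh2* and *Kcnd2* in the kidney at 3.33 ± 0.63 TPM and reached 16.8 ± 4 TPM in GE/OB.

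The ether-a-go-go group held the pore subunits of mESC. *Kcnh3* ranged from 7.30 to 9.13 TPM in mESC (median 8.62), from 5.76 to 6.73 in GE/OB and from 0.26 to 0.59 in the kidney. *Kcnh2*, the ERG channel that repolarizes the heart, was present throughout, at 14.1 ± 0.78 TPM in GE/OB, 9.39 ± 0.35 in the kidney and 4.53 ± 0.5 in mESC. It was the leading pore subunit of the kidney. *Kcnh4* went the other way between kidney and mESC, with 10.1 ± 1.5 TPM in GE/OB, 0.398 in mESC and 0.015 in the kidney (kidney against mESC log2 −4.72 ± 0.338, adjusted p = 5.95e-10). The entries that fell most in GE/OB were low everywhere. *Kcna7* had 103 counts over the mESC libraries and 2 over those of GE/OB, a ratio of 31.2 with an exact 95% counting interval of 8.43 to 261. *Kcnq1*, the partner of *Kcne1* in epithelia and heart, was at 0.79 TPM in the kidney and 0.448 TPM in GE/OB (log2 −1.43 ± 0.257, adjusted p = 6.74e-05). The entry ENSMUSG00000092083 of *Kcnb2* had 709 counts over GE/OB and 1 over mESC, a ratio of 1170 with an interval of 209 to 46300.

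Of the 10 silent subunits, 4 reached a mean of 1 TPM in GE/OB, *Kcns3* reached it in the kidney and mESC, and 5 reached it in no tissue. *Kcns3*, which joins Kv2 channels, ranged from 5.19 to 6.05 TPM in mESC and from 4.63 to 5.95 TPM in the kidney. These ranges overlapped, and the difference was not called (kidney against mESC log2 −0.13 ± 0.084, adjusted p = 0.149). In GE/OB it was at 0.11 and 0.36 TPM in WT and 0.11 and 0.07 TPM in KO, a fall of 5.84 ± 0.176 on the log2 scale against mESC (adjusted p = 2.95e-15). *Kcng1* (13.0 ± 0.74 TPM), *Kcnf1* (6.03 ± 1) and *Kcnv1* (3.81 ± 0.58) led the silent subunits of GE/OB, with *Kcns2* the fourth at 1.27 TPM, and none of these 4 passed a mean of 0.43 TPM elsewhere. *Kcnv1* gave the class's largest rise, 9.06 ± 0.535 against mESC on the log2 scale (adjusted p = 2.69e-10). *Kcnv2* had 148 counts over the kidney and 2 over GE/OB, a ratio of 35.4 (interval 9.63 to 295), and *Kcng3* was lower in the kidney than in mESC (log2 −2.12 ± 0.325, adjusted p = 1.07e-05).

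Of the inward rectifiers at a mean of 1 TPM in some tissue, 6 were highest in GE/OB, 3 in the kidney and 2 in mESC. *Kcnj8*, the pore of the vascular ATP-sensitive channel, ranged from 8.37 to 12.4 TPM in the kidney (median 11.2). It was at 5.26 and 6.85 TPM in WT and 5.48 and 4.33 TPM in KO GE/OB and had 2 counts over the 6 mESC libraries. Kidney against mESC gave a ratio of 1240 (interval 344 to 10300). Its sulphonylurea receptor *Abcc9* was at 3.35 ± 0.66 TPM in the kidney, 6.56 ± 0.99 in GE/OB and 0.0133 in mESC. Markers of pericytes and smooth muscle, 5 genes, summed to 69.9 to 101.3 TPM in the kidney, 35.8 to 47.6 in GE/OB and 0.21 to 0.46 in mESC, and their part in the *Kcnj8* level was not tested. *Kcnj11*, the pore of the ATP-sensitive channel of neurons and beta cells, was at 6.67 ± 1.1 TPM in GE/OB, where its receptor *Abcc8* was at 6.40 ± 1.5. Neither mean passed 0.645 TPM in another tissue.

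*Kcnj2* and *Kcnj16* lie 38.2 kb apart on chromosome 11, on the same strand (mm10). *Kcnj2*, a strong rectifier that holds the resting potential, ranged from 6.45 to 10.1 TPM in the kidney and stood at 1.58 ± 0.38 TPM in GE/OB and 0.107 in mESC. *Kcnj16*, which joins *Kcnj10* in renal tubules, ranged from 1.35 to 4.0 TPM in the kidney, with 0.07 TPM in GE/OB and 0.255 in mESC. Both were highest in the kidney. In GE/OB *Kcnj16* was 5.54 ± 0.425 lower than in the kidney (log2, adjusted p = 1.98e-09). *Kcnj10* did not follow it and was highest in GE/OB at 4.50 ± 0.43 TPM, against 0.415 in the kidney. *Kcnj3*, a G-protein-gated channel of neurons, was at 5.54 and 6.68 TPM in WT and 7.03 and 7.25 TPM in KO GE/OB and did not pass 0.05 TPM in any other library. *Kcnj5*, a partner of *Kcnj3*, had no count in mESC and was at least 134-fold higher in GE/OB, against a limit of 3 counts over the tissue. *Kcnj12* was the rectifier of mESC, from 3.07 to 3.74 TPM, with 1.11 ± 0.39 TPM in GE/OB and 0.113 in the kidney (kidney against mESC log2 −5.08 ± 0.244, adjusted p = 2.34e-12). *Kcnj4* was next there at 1.18 ± 0.27 TPM, followed by *Kcnj14* at 0.422.

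Two-pore channels held the leading gene of mESC. *Kcnk5*, the alkaline-sensitive TASK-2 channel, was at 31.4, 30.6 and 31.9 TPM in WT and 26.6, 30.3 and 30.4 TPM in KO mESC. It was at 4.46 ± 0.87 TPM in the kidney and 4.08 ± 1.2 TPM in GE/OB, and the highest of those 10 libraries reached 5.87 TPM. The log2 difference of GE/OB against mESC was −3.57 ± 0.144 (SE, adjusted p = 1.61e-13). *Kcnk1*, the weak rectifier TWIK-1, led the class in the kidney at 8.58 ± 1.4 TPM, with 3.67 ± 0.57 in mESC and 4.24 ± 1.1 in GE/OB. The TREK channels, opened by stretch and lipids, led it in GE/OB. *Kcnk10* was at 19.5, 17.99, 19.4 and 20.2 TPM in the 4 GE/OB libraries and did not pass 0.48 TPM elsewhere (log2 8.53 ± 0.196 against mESC, adjusted p = 7.79e-17). *Kcnk2* was at 18.2 ± 2.3 TPM there, 1.58 ± 0.42 in the kidney and 0.35 in mESC. *Kcnk9* had 86 counts over GE/OB and 2 over the kidney, a ratio of 89.9 (interval 24.1 to 754). *Kcnk6* was 1.93 ± 0.175 lower in GE/OB than in the kidney on the log2 scale, *Kcnk3*, an acid-sensitive channel, was 3.95 ± 0.278 higher in the kidney than in mESC, and *Kcnk4* had 80 counts over mESC and 3 over the kidney.

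Ion-activated channels were measured in all tissues, and each of the 8 entries passed the filter on low counts. In GE/OB *Kcnn2*, a small-conductance calcium-activated channel, was at 17.1 and 17.0 TPM in WT and 14.2 and 16.4 TPM in KO. *Kcnt1*, opened by sodium, was at 11.8 and 18.6 TPM in WT and 22.0 and 12.1 TPM in KO. The *Kcnt1* values of WT and KO overlapped, while both *Kcnn2* values of KO lay under both of WT. Neither gene was called between KO and WT. *Kcnn1* was at 9.89 ± 0.88 TPM in GE/OB, 2.95 ± 0.15 in mESC and 0.887 in the kidney, and was the leading entry of the class in mESC. *Kcnu1*, the pH-sensitive channel known from sperm, was second in mESC at 1.75 ± 0.35 TPM and reached 6.14 ± 0.7 in GE/OB (kidney against mESC log2 −2.82 ± 0.257, adjusted p = 1.6e-08). In the kidney *Kcnt2* (2.24 ± 0.32 TPM), *Kcnn4* (1.34 ± 0.28) and *Kcnn3* (1.18 ± 0.46) led. *Kcnn4*, the channel of blood cells and secretory epithelia, was 3.35 ± 0.31 lower in GE/OB than in the kidney (log2, adjusted p = 2.38e-08), while *Kcnma1*, the large-conductance BK channel, was 4.29 ± 0.304 higher in the kidney than in mESC (adjusted p = 5.25e-10). Haemoglobin and other red cell genes, 5 in all, summed to 4964 to 10210 TPM in the kidney and 2166 to 2929 in GE/OB, and their part in the *Kcnn4* level was not tested.

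Accessory subunits followed their pores in part. *Kcnip1*, a calcium sensor that binds Kv4 channels, was at 19.1 and 24.7 TPM in WT and 24.5 and 17.7 TPM in KO GE/OB and had no count in the 6 mESC libraries. Its gene overlaps that of *Kcnmb1* on the other strand, which did not pass the filter. It was at least 885-fold higher in GE/OB than the limit of 3 counts over mESC, and 5.02 ± 0.175 higher than in the kidney on the log2 scale (adjusted p = 1.22e-11). *Kcnip3* was at 17.0 ± 1.6 TPM in GE/OB and 2.70 ± 0.39 in the kidney. *Dpp6*, a partner of Kv4 channels outside the symbol rule, was also highest in GE/OB, at 34.2 ± 6.7 TPM. *Kcnmb4*, the neuronal beta subunit of BK channels, was at 22.0, 22.8, 27.8 and 20.1 TPM in the GE/OB libraries and at 8.47 ± 0.88 TPM in the kidney, where it led the class. Its mean exceeded that of the pore *Kcnma1* in each tissue (6.53 ± 1.4 TPM in GE/OB and 1.07 ± 0.32 in the kidney). *Kcnab2*, a Kv1 beta subunit related to aldo-keto reductases, was at 15.0 ± 1.9 TPM in GE/OB, 4.68 ± 0.33 in the kidney and 1.74 ± 0.63 in mESC. *Kcnab3*, of the same group, led in mESC at 3.81 ± 0.78 TPM, followed by *Kcnip2* at 2.35 ± 0.32. *Kcnab3* was lower in the kidney than in mESC (log2 −1.15 ± 0.0997, adjusted p = 7.85e-09). With the WT libraries alone this difference was −0.71, under the fold limit.

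Of the KCNE subunits tested, 3 were highest in the kidney. *Kcne3*, which keeps *Kcnq1* channels open in epithelia, ranged from 1.71 to 4.87 TPM there. *Kcne4* had 660 counts over the kidney and none in mESC and was at least 174-fold higher. *Kcne1* had 75 counts over the kidney and none in GE/OB and was at least 12-fold higher against a limit of 3 counts over GE/OB. Limits and intervals on counts cover counting error only.

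The calls between tissues took a log2 fold change of 1 or more in either direction beside an adjusted p under 0.05. In GE/OB against the kidney 49 of 80 tested entries were higher and 15 lower, where 22.3% of all tested genes were higher and 24.0% lower. In GE/OB against mESC 58 were higher and 9 lower, with 33.9% and 27.1% of all genes. In the kidney against mESC 48 were higher and 18 lower, with 31.3% and 21.8% of all genes. The medians over the 80 entries were 2.37, 3.78 and 1.67 on the log2 scale, where those over all tested genes were −0.05, 0.08 and 0.10. Setting the 1, 5 and 4 entries at 0 in a tissue to their limits could not change the medians over the 80. Each of these entries stayed on its side of the median. The 3 comparisons share libraries. A gene enters the test when it is high enough in 1 group, so the counts describe tested entries and not all 92.

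By class, GE/OB was higher than the kidney for 21 of 30 tested pore subunits, 5 of 9 silent subunits, 7 of 13 rectifiers, 5 of 9 two-pore channels, 6 of 8 ion-activated channels and 5 of 11 accessory subunits. It was lower for 2, 2, 5, 2, 1 and 3 of them. Against mESC the kidney was higher for 18 pore subunits and 9 rectifiers and lower for 7 and 3. The rectifiers with the kidney above GE/OB were *Kcnj2*, *Kcnj8*, *Kcnj14*, *Kcnj15* and *Kcnj16*, the first and last of which are neighbours.

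**Figure D3:**
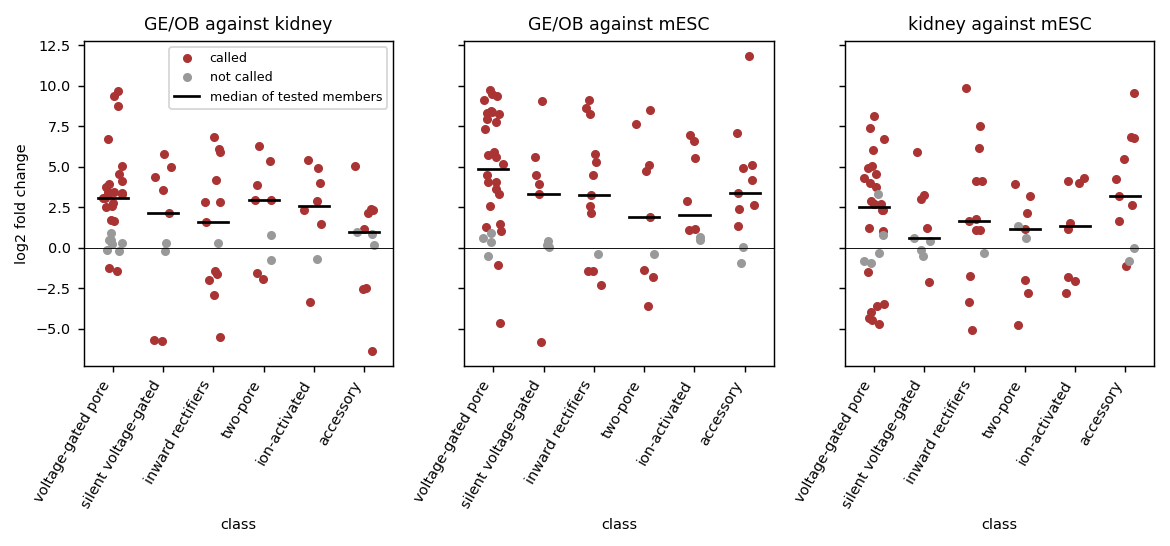
Log2 fold change of each tested potassium channel gene between tissues (1 panel per pair, classes on the x axis, red for called, grey for not called, black bars for class medians). In GE/OB against mESC 58 points are called above 0 and 9 below, and each of the 6 class medians lies above 0 in every panel.

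Of the 92 entries, 12 did not pass the filter on low counts. *Kcna10* and *Kcnk18*, a potassium channel of sensory ganglia, had no count in any library, which over all 16 libraries allows 3 counts. *Kcnk15*, *Kcnk16* and *Kcnmb3* had 2, 2 and 1 counts in all. *Kcne2*, *Kcng4*, *Kcnj1*, *Kcnj13*, *Kcnk7*, *Kcnk13* and *Kcnmb1* had 14 to 60 counts over all libraries and at most 15 in 1 library. *Kcnj1*, the secretory ROMK channel of the mature tubule, was among them with 14 counts in 5 libraries.

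In mESC, 4 of 80 tested entries were called between KO and WT (5.0%), with 2 higher and 2 lower, where 6.86% of all tested genes were called at an adjusted p under 0.05. The share is near that of all genes. *Kcnab2* and *Kcnh8* fell in KO, and *Kcnab3* and *Kcna2* rose. In all, 11 entries had an unadjusted p under 0.05. The median log2 change over the 80 was −0.09, with −0.03 over all tested genes.

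*Kcnab2* (chromosome 4, 152390742 to 152477871, mm10, minus strand) was at 4.17, 4.13 and 4.86 CPM (counts over library size, scaled by TMM factors) in the WT wells and 2.23, 2.20 and 2.55 CPM in the KO wells. The 2 groups did not overlap. The fall was 0.91 ± 0.109 on the log2 scale (SE, n = 3 wells each, edgeR adjusted p = 6.3e-05), or 1.88-fold. In TPM the groups overlapped, at 2.49, 1.66 and 2.27 in WT and 1.03, 1.00 and 2.00 in KO. The effective length given for *Kcnab2*, by which TPM divides, ranged from 1787 to 3248 bases over these 6 wells. With offsets for that length in DESeq2 the fall was 0.75 on the log2 scale (adjusted p = 0.00456).

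*Kcnh8* (chromosome 17, 52602709 to 52979194, plus strand), an ether-a-go-go channel, was at 1.55, 1.56 and 1.45 CPM in WT and 0.718, 0.488 and 0.762 CPM in KO wells. Every KO well lay under every WT well. The fall was 1.16 ± 0.189 (log2, SE, adjusted p = 0.00109), or 2.24-fold, at a level of 8 to 51 counts per well. *Kcnab3* (chromosome 11, 69326258 to 69333042, plus strand) was at 5.57, 4.78 and 4.66 CPM in WT and 6.96, 7.20 and 7.16 CPM in KO. Its groups did not overlap either. The rise was 0.51 ± 0.135 (log2, SE, adjusted p = 0.0326), or 1.42-fold. The calls of *Kcnab2* and *Kcnh8* held without any 1 of the 16 libraries. That of *Kcnab3* was lost without WT well 2 or 3 or any KO well (adjusted p from 0.0116 to 0.139 over the 16 omissions), and under the length offsets (log2 0.44, adjusted p = 0.0966).

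*Kcna2* (chromosome 3, 107101146 to 107115005, plus strand), a Kv1 channel of axons, rested on few reads. It had 2, 0 and 0 counts in the WT wells and 8, 6 and 7 in the KO wells, a ratio of 13.3 with an exact 95% counting interval of 3.25 to 117 (edgeR adjusted p = 0.0188). Without WT wells 2 or 3 or KO wells 2 or 3 the call was lost. In TPM the KO wells reached 0.12, 0.16 and 0.11, far under the 2.43 to 3.59 of GE/OB. *Kcna2* and *Kcna3* lie 63.1 kb apart, and *Kcna3* did not pass 0.05 TPM in any mESC well.

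**Figure D4:**
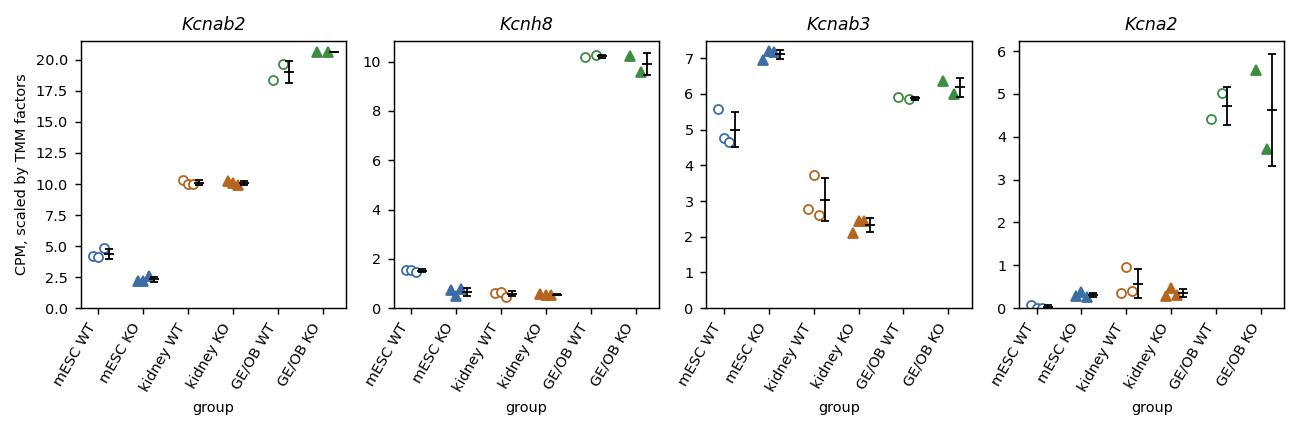
CPM scaled by TMM factors of the 4 genes called in KO mESC, by group (open circles WT, filled triangles KO, 1 point per library, bars for mean and SD). In mESC the KO wells lie below the WT wells for *Kcnab2* and *Kcnh8* and above them for *Kcnab3* and *Kcna2*, and these genes were not called in the kidney or GE/OB.

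Of the leading genes of mESC, *Kcnk5*, *Kcnh3*, *Kcns3*, *Kcnj12*, *Kcnh2* and *Kcnn1* were not called between KO and WT. When mESC was fitted alone, 9 of 39 tested entries were called, a share near the 25.2% of all genes called in that fit, among them *Kcnk5* with a change of −0.14 on the log2 scale (adjusted p = 0.0343) and *Kcnk1* at −0.43 (adjusted p = 0.00574). Markers of feeder fibroblasts also moved between these groups: 5 genes summed to 1.38 to 1.80 TPM in WT and 0.38 to 0.80 TPM in KO wells, with *Col3a1* and *Lox* called lower. The 8 neuron markers summed to 358.5 to 374.6 TPM in WT and 389.9 to 400.8 TPM in KO wells. The part of these markers in the changes above was not tested. The endothelial gene *Kdr* was called higher, and none of the 4 stem cell markers or 8 neuron markers was called.

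**Figure D5:**
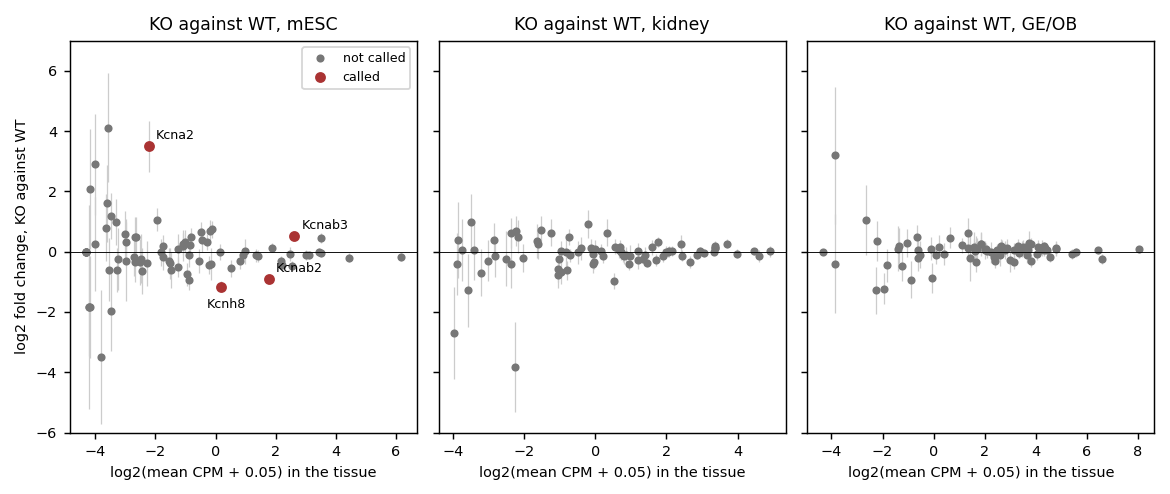
Log2 fold change of KO against WT for the 80 tested potassium channel genes in each tissue, against log2(mean CPM + 0.05) (bars for SE, drawn to the edge of the panel where longer, red for called). The 4 called genes are in mESC, and the wide spread lies at low CPM.

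In the kidney 0 of 80 entries were called by edgeR, where 0.223% of all tested genes were, and 4 had an unadjusted p under 0.05. DESeq2 called 0, with 3 at an unadjusted p under 0.05. The smallest p was that of *Kcna1*, a Kv1 channel of axons, chosen here after its values were seen. It was at 1.27, 2.52 and 1.73 CPM in WT and 0.742, 0.770 and 1.23 CPM in KO (log2 −0.96 ± 0.261, edgeR adjusted p = 0.25). No KO kidney reached the lowest WT value. *Kcna4*, also named after its values were seen, had 25 counts in WT 3 and at most 1 in each other kidney library. In that same library *Kcnip4* and *Kcna2* also had their highest kidney levels, at 0.91 and 0.40 TPM. Markers of skeletal muscle, 5 genes, summed to 15.6 to 19.0 TPM in WT and 4.12 to 6.67 TPM in KO kidneys, and *Acta1*, *Myh3* and *Myh8* were called lower. Their part in the kidney values was not tested. The kidney's leading genes *Kcnj8*, *Kcnh2*, *Kcnk1*, *Kcnmb4*, *Kcnj2* and *Kcnd2* did not pass the test, and the median over the 80 entries was −0.005, with 0.0 over all genes.

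In GE/OB 0 of 80 entries were called by edgeR, where 0.0630% of all tested genes were, and 0 had an unadjusted p under 0.05. DESeq2 also gave 0 by both measures. The median log2 change over the 80 was 0.07, with 0.02 over all genes. The summed TPM of pore subunits was higher in the KO library 2 than in the other 3, at 329.6 against 268.4 as the lowest, as the plot of class sums shows.

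To ask whether a KO difference varied between tissues, the differences themselves were compared. In mESC the KO difference is also a difference between clones, and in GE/OB between the sexes. A KO effect that varies by tissue cannot be told apart from these. Between mESC and the kidney 3 of 80 entries differed, where 2.24% of all tested genes did. These were *Kcnab2* (log2 −0.90 ± 0.139, adjusted p = 0.00161), *Kcnab3* (0.88 ± 0.199, adjusted p = 0.0264) and *Kcna2* (4.17 ± 0.947, adjusted p = 0.0283). *Kcnab3* was at 2.79, 3.73 and 2.60 CPM in WT and 2.10, 2.44 and 2.45 CPM in KO kidneys, so its groups lay in the other order there (log2 −0.38 ± 0.146, adjusted p = 0.549). *Kcnab2* was at 9.97 to 10.3 CPM in WT and 9.94 to 10.2 CPM in KO kidneys.

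Between mESC and GE/OB 2 of 80 differed, where 1.08% of all genes did. *Kcnab2* differed by −1.03 ± 0.149 (log2, adjusted p = 0.00206) and *Kcnh8* by −1.12 ± 0.248 (adjusted p = 0.0392). *Kcnab2* was at 18.4 and 19.7 CPM in WT and 20.6 in both KO GE/OB libraries, and *Kcnh8* at 10.2 and 10.3 CPM in WT and 10.2 and 9.58 CPM in KO. Neither was called within GE/OB. Between the kidney and GE/OB 0 of 80 differed by edgeR, where 0.0344% of all genes did, with 1 at an unadjusted p under 0.05 and 0 called by DESeq2. The 3 comparisons share libraries.

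Genes that work with potassium channels, or share the membrane with them, were counted beside them. Of 12 tested partners outside the symbol rule, 1 fell in KO mESC and 0 rose, where 6.86% of all tested genes were called. It was *Dpp6*, at 5.20, 5.11 and 4.98 TPM in WT and 1.29, 1.78 and 1.21 TPM in KO wells (log2 −1.91 ± 0.214, adjusted p = 3.4e-05). The groups did not overlap. *Hcn2*, a pacemaker channel, followed *Dpp6* in mESC at 2.78 ± 0.36 TPM. In the kidney *Amigo1*, a Kv2 partner, led at 9.16 ± 1.3 TPM and *Kcne1l* followed at 7.23 ± 1. In GE/OB *Hcn3* followed *Dpp6* at 21.3 ± 2.2 TPM.

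Of 13 voltage-gated sodium channel genes, 2 rose in KO mESC and 0 fell, beside the 6.86% of all genes called in either direction. *Scn3a*, an embryonic neuronal pore, was at 2.88, 2.96 and 2.44 TPM in WT and 4.04, 4.24 and 4.69 TPM in KO (log2 0.69 ± 0.152, adjusted p = 0.0108). *Scn2b*, a beta subunit, rose by 1.00 ± 0.194 (log2, adjusted p = 0.00436). In GE/OB *Scn3b* and *Scn3a* led with 73.8 ± 12 and 60.3 ± 9.7 TPM. In the kidney *Scn2b* led at 3.47 ± 0.51 TPM, followed by *Scn8a* at 2.69 ± 0.21.

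Of 6 tested sodium pump subunits, which keep up the potassium gradient, 1 rose and 2 fell in KO mESC, with the same 6.86% over all genes. The beta subunit *Atp1b3* rose by 0.20 ± 0.0481 (log2, adjusted p = 0.0189). *Atp1b1* was at 105 ± 12 TPM in mESC, and *Atp1b3* at 79.3 ± 7.5 in the kidney and 100.2 ± 3.5 in GE/OB. Of the 9 tested calcium channel pores none was called in mESC by edgeR. The smallest p was that of *Cacna1b*, named after its values were seen (log2 −1.16 ± 0.374, adjusted p = 0.0758). *Cacna1a* led these in mESC at 15.4 ± 2.7 TPM, *Cacna1g* and *Cacna1h* in the kidney at 19.3 ± 2.1 and 14.1 ± 1.7, and *Cacna1h* and *Cacna1g* in GE/OB at 63.7 ± 13 and 31.0 ± 6.3. In the kidney and GE/OB no tested gene of these 4 lists was called by edgeR.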

How the data were processed

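RNA-seq was measured in 16 libraries of mESC (3 WT, 3 KO), kidney (3, 3) and GE/OB (2, 2). From poly(A) RNA, the authors estimated gene abundance with RSEM and bowtie2 on mm10. The deposited tables give an expected count, a TPM value and an effective length per gene. Counts were rounded, and 17459 genes that passed filterByExpr by group were fitted with the quasi-likelihood test of edgeR 4.0.16 (R 4.3.3), with TMM factors and 1 coefficient per tissue and genotype. Benjamini-Hochberg adjustment took in every tested gene. KO differences were called at an adjusted p under 0.05 and tissue differences also at a log2 fold change of at least 1. SE is the log2 fold change over the square root of F. Reads of near-identical channel genes may be split by RSEM.

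The named genes are every one called in KO or in a difference of KO effects, the 3 with the highest TPM per class and tissue, the called one with the largest change per class, tissue pair and direction, those with an unadjusted p under 0.05 in the same direction in 2 tissues (none met this), and, of the related lists, the 2 highest per tissue and those called in KO. 1 gene of the symbol pattern was left out, and some genes that this rule selects are not reported here. Others named for a pair, a partner or a neighbour were chosen after their values were seen. The members and lists were chosen with earlier results of these data known. Positions are from GENCODE vM21. Totals of 17544707 to 45924887 counts set the precision, and intervals cover counting error only.

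The fit was tested on simulated data, with changes set in genes above a limit on counts. For KO against WT in mESC, the kidney and GE/OB it found 75%, 67% and 56% of 1.5-fold changes. Of 2-fold changes it found 89%, 88% and 92%. Of its calls 4.65%, 7.74% and 12.4% were false. Alternatives were DESeq2 1.42.0, DESeq2 with offsets for length (sum of counts above 1), RLE factors, filters at sums of counts above 1 and above 0, an adjusted p under 0.01, each tissue alone, sex as a term, a replicate block for mESC wells, WT libraries alone, no fold limit, other level limits and leaving out each library. Hi-C and MPRA files were not used here. Figures were drawn with matplotlib 3.10.9.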

Additional observations from a re-analysis of the deposited data

Results flagged for a closer look

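In 5 results the KO difference of a potassium channel gene differed between tissues by a test of the difference itself. Genotype cannot be told apart from clone in mESC or from sex in GE/OB, so neither can a KO effect that varies by tissue. For *Kcnab2* the log2 difference was −0.905 between mESC and the kidney and −1.028 between mESC and GE/OB, and both held without any 1 library (adjusted p at most 0.0074 and 0.0202). For *Kcnab3* it was 0.8847 between mESC and the kidney, where the KO libraries lay above the WT libraries in mESC and below them in the kidney. Adjusted p ranged from 0.0187 to 0.085 over the omissions. The call was lost without mESC WT 2 or 3, KO 2 or 3, kidney WT 3 or kidney KO 7.

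For *Kcna2* the difference between mESC and the kidney was 4.168 on the log2 scale and rested on 2, 0 and 0 counts in WT and 8, 6 and 7 in KO mESC. It was lost without mESC WT 2 or 3, any mESC KO well or kidney KO 10 (adjusted p up to 0.107). DESeq2 gave a difference of 4.424 without an adjusted p and did not call it. For *Kcnh8* the difference between mESC and GE/OB was −1.12, and it was lost in 11 of 16 omissions (adjusted p from 0.0309 to 0.146), those of every mESC and GE/OB library and of kidney KO 7.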

How the results depend on the processing

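None of the differences called in KO or between KO effects, and none of the largest called changes between tissues, reversed. Other named genes were not followed through the alternatives. Of 782 alternative values for the largest changes between tissues 1 fell under the threshold, and for the genes called in KO 42 of 199 did. In mESC, 4 entries called between KO and WT became 2 at an adjusted p under 0.01, 9 with mESC fitted alone, and 2 to 5 without 1 library. With a replicate block (39 entries tested, as in the fit of mESC alone) 8 were called, where 28.5% of all genes were. Same-numbered WT and KO wells correlated at 0.191, 0.236 and 0.0867 in their deviations from the group means. Each well correlated best with its own number, and wells with different numbers ran from −0.196 to 0.015. These values do not settle whether the numbers pair the wells, and the main fit held no replicate block. Between mESC and the kidney 3 differences became 1 at an adjusted p under 0.01 and 1 to 4 without 1 library. Between mESC and GE/OB 2 became 1 with DESeq2, with either filter on the sum of counts and at an adjusted p under 0.01, and 1 to 3 without 1 library. The cause was not tested. Kidney and GE/OB kept 0 calls in every alternative run that left at least 2 libraries per group. Sex as a covariate was among these runs. All mESC libraries were male and sex matched genotype in GE/OB, so that term drew on the kidney. It cannot separate sex from genotype in GE/OB. Tissue calls stayed within 1.5 times of 64, 67 and 66. With 1 CPM in place of 1 TPM the kidney had 42 entries in place of 28. Where an omission left 1 GE/OB library of a genotype, that library was assumed to vary like the other groups.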
